A study of Mus musculus with 12 samples.

Results

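Nodal, Gdf3, Tdgf1, Lefty1, Lefty2 and Cer1 encode the ligands, the co-receptor and the secreted inhibitors of the Nodal branch of transforming growth factor beta (TGF-beta) signalling. Their probe sets were found by gene symbol among the annotated probe sets of a mouse gene array, with the probe set of the highest mean taken where a symbol has several. Each of the 6 genes has 1 probe set, and they are 6 of the 19938 genes measured. Only genes whose signal was above the array median on at least 1 array were tested, which kept 13044 genes and 5 of the 6, with Cer1 left out.

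Nodal is a secreted ligand that signals through activin receptors and needs a co-receptor of the EGF-CFC family, such as the product of Tdgf1 (Cripto), and the receptors then activate Smad proteins that act in the nucleus with partners such as Foxh1. Gdf3 is a related ligand that can signal through the same receptors and co-receptor. Lefty1 and Lefty2 are induced by Nodal signalling in the embryo and block the ligand and the co-receptor, and Cer1 binds Nodal and other ligands outside the cell. In the early mouse embryo the pathway maintains and patterns the epiblast, and embryonic stem cells (ESC), which come from the inner cell mass, transcribe several of its genes.

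The promoters of Nodal, Tdgf1 and Cer1 are shown because entries were found for only these 3 of the 6 genes. As described below, Nodal and Tdgf1 were high in all pluripotent lines, and the inhibitor gene Cer1 was low on every array. Each window is the 250 bases upstream of the annotated start, from RefSeq on GRCm38.p6. Nodal is on the plus strand at chr10:61417722-61417971, Tdgf1 on the minus strand at chr9:110946159-110946408 and Cer1 on the minus strand at chr4:82885152-82885401. Capitals mark a Klf-type element.
Nodal: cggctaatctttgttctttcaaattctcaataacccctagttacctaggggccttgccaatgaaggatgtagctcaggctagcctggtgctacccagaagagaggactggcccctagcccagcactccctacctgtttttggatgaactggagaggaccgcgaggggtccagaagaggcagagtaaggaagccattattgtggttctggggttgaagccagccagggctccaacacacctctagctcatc
Tdgf1: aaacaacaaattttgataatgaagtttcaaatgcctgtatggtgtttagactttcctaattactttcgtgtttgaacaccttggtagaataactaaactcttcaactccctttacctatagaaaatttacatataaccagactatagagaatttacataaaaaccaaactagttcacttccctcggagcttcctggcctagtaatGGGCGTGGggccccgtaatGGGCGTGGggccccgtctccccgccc
Cer1: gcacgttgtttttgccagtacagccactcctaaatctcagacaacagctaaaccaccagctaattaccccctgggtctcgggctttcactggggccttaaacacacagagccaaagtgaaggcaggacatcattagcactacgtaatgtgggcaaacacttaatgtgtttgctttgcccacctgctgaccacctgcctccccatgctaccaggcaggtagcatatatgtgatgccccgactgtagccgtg

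These windows were searched on both strands for 4 fixed words that did not overlap each other in any match: aatccaca for Foxh1, gtctagac for Smad proteins, the octamer atttgcat for Oct4, and gggcgtgg for Klf factors. The only matches were a pair of Klf-type elements in the Tdgf1 window, starting 45 and 26 bases before the start. Of 32851 RefSeq promoter windows of this length, 4.79% held that word, 1.60% held the octamer, 0.718% the Foxh1 word and 0.167% the Smad word. A match describes the letters of the window only, and no match says no more than that these letters are not in it.

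The series asked how Mbd3, which belongs to the chromatin-remodelling complex NuRD, bears on the reprogramming of mouse cells to pluripotency. There was 1 array for each of 12 combinations of genotype and stage. Pluripotent lines gave 4 arrays, from Mbd3 flox/- induced pluripotent stem cells (iPSC), Mbd3+/+ (WT) iPSC, Mbd3 -/- ESC and WT ESC of the V6.5 line. Embryonic fibroblasts (MEF) treated with doxycycline (DOX) gave 5 arrays, from flox/- cells at days 4 and 8 and WT cells at days 4, 8 and 11, and untreated MEF gave 3, from flox/-, -/- and WT cells. The flox/- cells and the WT cells other than the ESC carried a DOX-inducible OSKM transgene, which encodes the factors Oct4, Sox2, Klf4 and Myc that reprogram cells, while the labels of the -/- MEF, the -/- ESC and the WT ESC name none. The labels name no Cre for the floxed allele and no separate cultures or animals, and a single growth protocol covers all samples, in serum-replacement 2i/LIF medium on irradiated DR4 feeder MEF. An earlier series supplied 2 of the arrays, WT day 8 and WT ESC, and 1 label of the WT day 8 array names 4 days where its title and stage label name 8.

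Values are quantile-normalized log2 signals, with an array median of 6.31 and a lower quartile of 4.68 on the 12 arrays, and 1 unit is a 2-fold difference. Mbd3 itself had a log2 signal of 8.73 to 9.11 in the flox/- arrays, 8.15 in -/- MEF and 6.73 in -/- ESC, against 8.995 to 9.67 in the WT arrays, and where its probes lie relative to the deleted part is not known. The summed linear signal of 9 fibroblast markers, which MEF and feeder cells share, was 781 to 7802 in the pluripotent arrays and 663 to 20450 under DOX, against 34306 to 38335 in MEF. The 12 primitive and visceral endoderm markers summed to 1701 to 3204 in pluripotent arrays and 1568 to 5279 under DOX, against 5996 to 7654 in MEF, with 4 to 7 of them above the median on each array. Afp and Ttr were below the lower quartile on all 12 arrays and Sox17 on 10 of 12, while Lama1 had log2 signals of 9.10 to 10.04 in pluripotent arrays, against 5.70 to 5.99 in MEF. The 7 trophoblast markers summed to 771 to 892 in pluripotent arrays and 294 to 1636 under DOX, against 404 to 712 in MEF. The 7 macrophage markers summed to 227 to 1597 in pluripotent arrays and 225 to 5010 under DOX, against 1473 to 9976 in MEF. The part of these markers in the differences between states was not tested. In such bulk RNA, fewer cells of a type and less RNA per cell cannot be told apart.

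**Figure D1:**
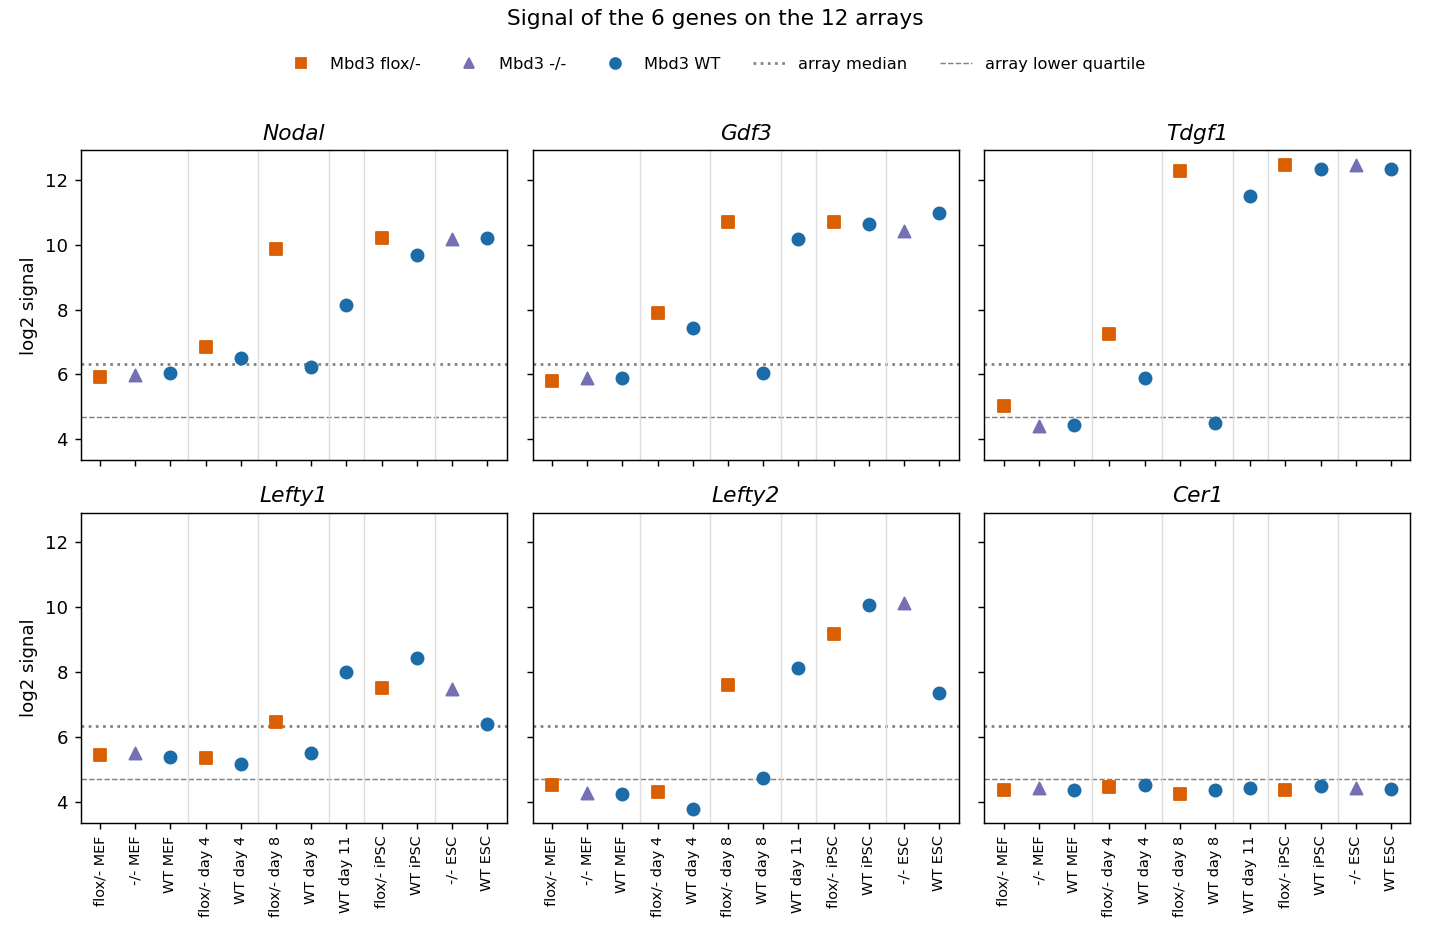
Log2 signal (vertical axis) of the 6 genes on each of the 12 arrays (horizontal axis, by stage, with flox/- and -/- arrays left of WT), 1 point per array; the dotted line is the array median and the dashed line the lower quartile. Tdgf1 lies between 12.33 and 12.47 in the 4 pluripotent arrays and between 4.40 and 5.02 in MEF, the Lefty genes spread among the pluripotent arrays, and Cer1 stays below the lower quartile throughout.

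The first comparison set established pluripotent lines against MEF, the end and the start of reprogramming. The ligand genes Nodal and Gdf3, the co-receptor gene Tdgf1 and both Lefty genes rose in pluripotent cells, from 4.04-fold for Lefty1 to 220-fold for Tdgf1, while Cer1 stayed near the low end of the array. In limma, all 5 of the 5 genes tested were called higher (adjusted p under 0.05, Benjamini-Hochberg over all genes), where 30.1% of all genes tested were called higher and 60.0% in either direction. All 5 lay below the array median on every MEF array, so they passed the filter through arrays where they are high, and nothing is read from that share. Arrays of different genotype stand as replicates here, so the errors hold the spread between genotypes as well as between cultures.

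Nodal had log2 signals of 10.20 in flox/- iPSC, 9.69 in WT iPSC, 10.18 in -/- ESC and 10.19 in WT ESC, against 5.92 in flox/- MEF, 5.98 in -/- MEF and 6.04 in WT MEF. All pluripotent arrays lay well above all MEF arrays, as for 32.3% of the genes tested, and WT iPSC was the lowest of them. The mean was 10.07 ± 0.25 (SD, n = 4) in pluripotent arrays and 5.98 ± 0.06 (SD, n = 3) in MEF. The difference was 4.09 ± 0.15 SE, or 17.0-fold (limma adjusted p = 3.39e-06).

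Gdf3 had 10.70 in flox/- iPSC, 10.63 in WT iPSC, 10.43 in -/- ESC and 10.96 in WT ESC, against 5.80, 5.89 and 5.89 in flox/-, -/- and WT MEF. The groups were again far apart, and the 4 pluripotent lines differed among themselves by 0.54 at most. The difference was 4.82 ± 0.14 SE, or 28.2-fold (limma adjusted p = 1.23e-06).

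Tdgf1, the co-receptor gene, had 12.45 in flox/- iPSC, 12.33 in WT iPSC, 12.47 in -/- ESC and 12.33 in WT ESC, against 5.02 in flox/- MEF, 4.40 in -/- MEF and 4.43 in WT MEF. The pluripotent arrays were nearly level with each other, and -/- and WT MEF lay below the lower quartile of their arrays, so the background of the array limits the fold. The difference was 7.78 ± 0.17 SE, or 220-fold (limma adjusted p = 3.48e-07). The mouse genome has 2 annotated Tdgf1 pseudogenes, on chromosomes 16 and 17, and whether their RNA reaches this probe set on chromosome 9 was not tested.

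Lefty1 had 7.51 in flox/- iPSC, 8.44 in WT iPSC, 7.46 in -/- ESC and 6.39 in WT ESC, against 5.43, 5.49 and 5.39 in flox/-, -/- and WT MEF. WT iPSC was high and WT ESC low among the pluripotent arrays, and all 4 were above MEF. The difference was 2.01 ± 0.42 SE, or 4.04-fold (limma adjusted p = 0.00439).

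Lefty2 had 9.16 in flox/- iPSC, 10.05 in WT iPSC, 10.13 in -/- ESC and 7.35 in WT ESC, against 4.52 in flox/- MEF, 4.25 in -/- MEF and 4.23 in WT MEF. The WT ESC array was again the lowest pluripotent array, and all MEF arrays were below the lower quartile, so that the background limits this fold too. The difference was 4.84 ± 0.64 SE, or 28.6-fold (limma adjusted p = 0.000532). Lefty1 and Lefty2 are similar paralogs that both lie on chromosome 1. The probe sequences were not used here, so how far either probe set reads the other gene was not tested.

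Cer1, the second kind of Nodal inhibitor, had 4.35 to 4.49 in the pluripotent arrays, 4.22 to 4.50 under DOX and 4.34 to 4.43 in MEF. All 12 values were below the lower quartile, so a level was not distinguishable from the background of the array. Tested without the filter on low signal, the difference between pluripotent arrays and MEF was 0.03 ± 0.07 SE (limma adjusted p = 0.789).

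**Figure D2:**
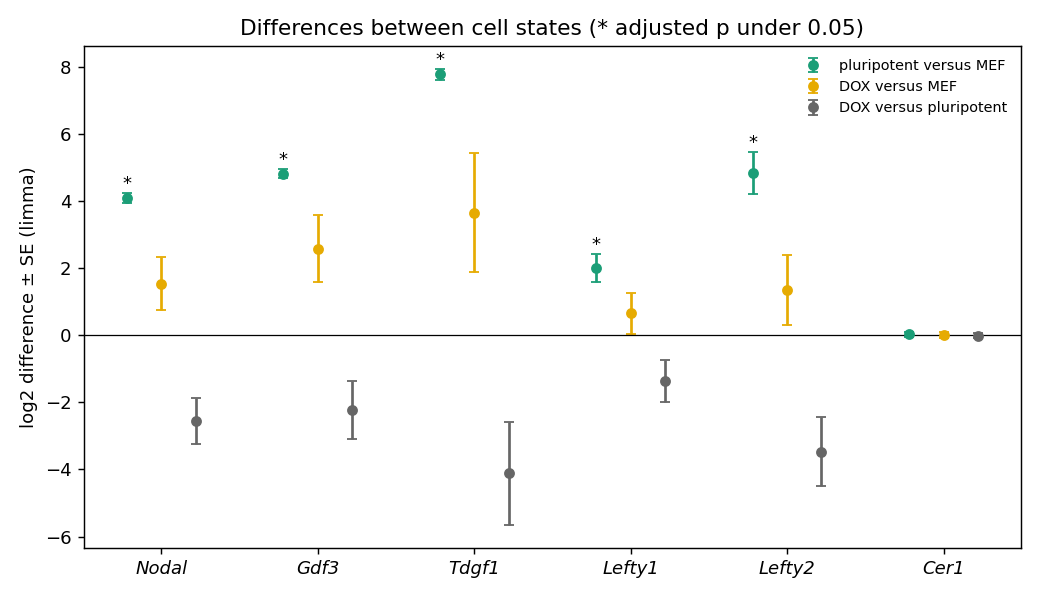
Log2 differences with their SE from limma (vertical axis) for the 6 genes (horizontal axis) in 3 comparisons, pluripotent versus MEF, DOX versus MEF and DOX versus pluripotent; an asterisk marks an adjusted p under 0.05, and the Cer1 points come from the fit without the filter. Only the pluripotent versus MEF differences carry an asterisk, for 5 genes, and the DOX differences have SE of up to 1.78 log2 units.

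The members also differed in how much they varied among the pluripotent lines. The SD over the 4 arrays was 1.29 for Lefty2 and 0.84 for Lefty1, against 0.25 for Nodal, 0.22 for Gdf3 and 0.07 for Tdgf1. The median gene had an SD of 0.22. Of all genes tested, 1.26% varied at least as much as Lefty2 and 4.10% at least as much as Lefty1, while 41.0% varied at least as much as Nodal, 48.4% as Gdf3 and 93.2% as Tdgf1. Lefty1 and Lefty2 thus varied more than Nodal, Gdf3 and Tdgf1 over these 4 arrays, as a description, and Cer1, whose values lie in the background, had an SD of 0.060. Without the WT ESC array, a setting chosen after seeing the data, the SD was 0.54 for Lefty2, 0.55 for Lefty1, 0.29 for Nodal, 0.14 for Gdf3 and 0.074 for Tdgf1, where the median gene had 0.17. Of all genes tested, 9.18% then varied at least as much as Lefty2 and 8.86% as Lefty1.

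The WT ESC array was the lowest for both Lefty genes, 1.80 log2 units below the lowest other pluripotent array for Lefty2 and 1.06 below it for Lefty1. Of all genes tested, 0.483% had WT ESC at least 2-fold below every other pluripotent array. WT ESC had a summed fibroblast marker signal of 4824, against 781 in flox/- iPSC, 2492 in -/- ESC and 7802 in WT iPSC. The part of these markers in the low Lefty values was not tested. WT ESC is also the pluripotent array that came from the earlier series, so line and series cannot be told apart for it. Within ESC, genotype cannot be told apart from them either. WT iPSC, which is also WT for Mbd3, had 8.44 for Lefty1 and 10.05 for Lefty2. Without WT ESC, the pluripotent versus MEF difference was 2.37 for Lefty1 and 5.44 for Lefty2.

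iPSC and ESC were compared to see whether the origin of the pluripotent line went with the level of these genes. Limma called 0 of all genes (0.0%), with 60 genes and 1 of the 5 members, Lefty1, at an unadjusted p under 0.05. Lefty1 was 1.05 ± 0.45 SE higher in iPSC (unadjusted p = 0.0467, adjusted p = 0.99995), and Lefty2 differed by 0.86 ± 1.03 SE. Nodal (-0.24 ± 0.92 SE), Gdf3 (-0.03 ± 1.17 SE) and Tdgf1 (-0.01 ± 1.96 SE) had errors that come from the fit over all stages, in which the day 8 arrays are far apart. Without either day 8 array these SE were 0.21 for Nodal, 0.23 for Gdf3 and 0.42 for Tdgf1, with the same differences. The Lefty1 difference was 0.52 without WT ESC, 0.59 without WT iPSC and 1.58 without -/- ESC.

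DOX-treated cells were then compared with MEF and with the pluripotent lines, to place these genes along reprogramming. Under DOX the ligand and co-receptor genes were closest to MEF in WT day 8, higher at day 4, and closest to the pluripotent lines in flox/- day 8 and WT day 11. Against the MEF of the same genotype, 5 of the 6 genes were at least 2-fold higher in flox/- day 8, where 15.8% of all genes were, and the same 5 in WT day 11, where 11.6% were. In WT day 8 0 of the 6 were, where 12.4% of genes were. These shares are of the genes tested, which leave out Cer1. The other 5 passed the filter through arrays where they are high, flox/- day 8 and WT day 11 among them. Nothing is read from these shares, or from the other shares set beside the members against MEF below. The summed fibroblast marker signal of the DOX arrays was 6229 in flox/- and 20450 in WT at day 4. At day 8 it was 663 in flox/- and 10954 in WT, and at day 11 it was 11561 in WT. The mean log2 signal of these markers was 9.17, 10.87, 6.07, 8.37 and 10.04 in the same order. The part of these markers in the differences was not tested. The DOX arrays spread so widely that limma called 0 of the 5 genes tested against MEF, where 5.88% of genes were called higher and 13.6% in either direction, and Gdf3 alone had an unadjusted p under 0.05. It also called 0 of the 5 against the pluripotent lines, where 0.00767% of genes were called, with 4 of the 5 at an unadjusted p under 0.05.

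Gdf3 had a log2 signal of 7.90 in flox/- and 7.43 in WT at day 4, 10.69 in flox/- and 6.04 in WT at day 8 and 10.18 in WT at day 11. The flox/- day 8 and WT day 11 arrays were high, WT day 8 was close to MEF, and all 5 lay above every MEF array. The difference from MEF was 2.59 ± 1.01 SE, or 6.01-fold (limma adjusted p = 0.113), and without the WT day 8 array it was 3.19 (adjusted p = 0.0342). The difference from the pluripotent lines was -2.23 ± 0.88 SE (limma adjusted p = 0.301), and flox/- day 8 lay inside the pluripotent range.

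Nodal had 6.85 in flox/- and 6.50 in WT at day 4, 9.87 in flox/- and 6.24 in WT at day 8 and 8.15 in WT at day 11. All 5 were above the MEF arrays, WT day 8 only slightly, and flox/- day 8 was inside the pluripotent range. Of all genes tested, 15.3% had every DOX array above every MEF array, as Nodal and Gdf3 did. The difference from MEF was 1.54 ± 0.78 SE (limma adjusted p = 0.200), and that from the pluripotent lines was -2.55 ± 0.68 SE (adjusted p = 0.261).

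Tdgf1 had 7.24 in flox/- and 5.89 in WT at day 4, 12.26 in flox/- and 4.49 in WT at day 8 and 11.50 in WT at day 11. The WT day 8 array was as low as MEF, while flox/- day 8 was just below the lowest pluripotent array, so that every DOX array was below every pluripotent array, as for 2.78% of genes. The SD over the 5 DOX arrays was 3.44, and 0.0153% of genes had an SD that large or larger. The difference was 3.66 ± 1.78 SE from MEF (limma adjusted p = 0.184) and -4.12 ± 1.53 SE from the pluripotent lines (adjusted p = 0.289).

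Lefty2 had 4.29 in flox/- and 3.78 in WT at day 4, 7.58 in flox/- and 4.72 in WT at day 8 and 8.13 in WT at day 11. Both day 4 arrays were below the lower quartile, and the flox/- day 8 and WT day 11 arrays were above WT ESC but below the other pluripotent lines. The difference was 1.36 ± 1.04 SE from MEF (limma adjusted p = 0.376) and -3.48 ± 1.03 SE from the pluripotent lines (adjusted p = 0.262). Lefty1 had 5.35 in flox/- and 5.16 in WT at day 4, 6.44 in flox/- and 5.51 in WT at day 8 and 7.98 in WT at day 11. Its day 4 values were below every MEF array, and WT day 11 was above every pluripotent line except WT iPSC. The difference was 0.65 ± 0.61 SE from MEF (limma adjusted p = 0.473) and -1.36 ± 0.62 SE from the pluripotent lines (adjusted p = 0.324).

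These differences from MEF also rest on single arrays, though none was called for Nodal or the Lefty genes. Without flox/- day 8 they were 0.95 for Nodal and 0.89 for Lefty2, and without WT day 11 they were 0.76 for Lefty2 and 0.18 for Lefty1.

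In the order of the state means, pluripotent lines stood first, DOX second and MEF last for each of the 5 genes, and the neighbours DOX and MEF did not differ beyond their spread in the test, nor did DOX and pluripotent. The second of these depended on 1 array. Without flox/- day 8, limma called 1315 genes and, among them, Nodal (-3.14, adjusted p = 0.00743), Tdgf1 (-5.11, adjusted p = 0.0457) and Lefty2 (-3.95, adjusted p = 0.0465) lower under DOX than in the pluripotent lines.

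To set the members side by side, each DOX array was placed between the MEF mean (0%) and the pluripotent mean (100%) of the same gene. At day 4 in flox/- cells Gdf3 stood at 42.2%, Tdgf1 at 33.8% and Nodal at 21.2%, with Lefty2 at -0.99% and Lefty1 at -4.15%. At day 4 in WT cells Gdf3 stood at 32.5%, Tdgf1 at 16.4% and Nodal at 12.6%, with Lefty2 at -11.5% and Lefty1 at -13.9%. Of Gdf3, Tdgf1 and Nodal, Gdf3 stood first and Nodal last in both genotypes on this scale. The 0% point of Tdgf1 rests partly on -/- and WT MEF signals below the lower quartile. By log2 difference from the MEF of the same genotype, Tdgf1 (2.22) was above Gdf3 (2.10) in flox/- cells. In WT cells Gdf3 (1.54) was above Tdgf1 (1.46). The Lefty2 signals at day 4 and in MEF were below the lower quartile, so its position there carries no order. The median of the 524 genes called at least 4-fold higher in pluripotent cells was 51.9% in flox/- and 19.0% in WT cells at day 4. Over all 3921 genes called higher it was 77.9% in flox/- and 38.7% in WT cells, so the place of the members against other genes depends on the set they are read against.

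In flox/- cells at day 8 Gdf3 (100.3%), Tdgf1 (98.2%) and Nodal (95.1%) stood at the pluripotent mean, as did the median of the 524 genes (101.3%). Lefty2 (67.1%) and Lefty1 (50.1%) stood below it. WT cells at day 8 had all 5 members between -1.64% and 7.85%, below the 14.2% of the 524 genes. WT cells at day 11 had Lefty1 at 126.5%, Gdf3 at 89.7%, Tdgf1 at 88.5%, Lefty2 at 78.4% and Nodal at 53.1%, where the 524 genes had a median of 78.4%.

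**Figure D3:**
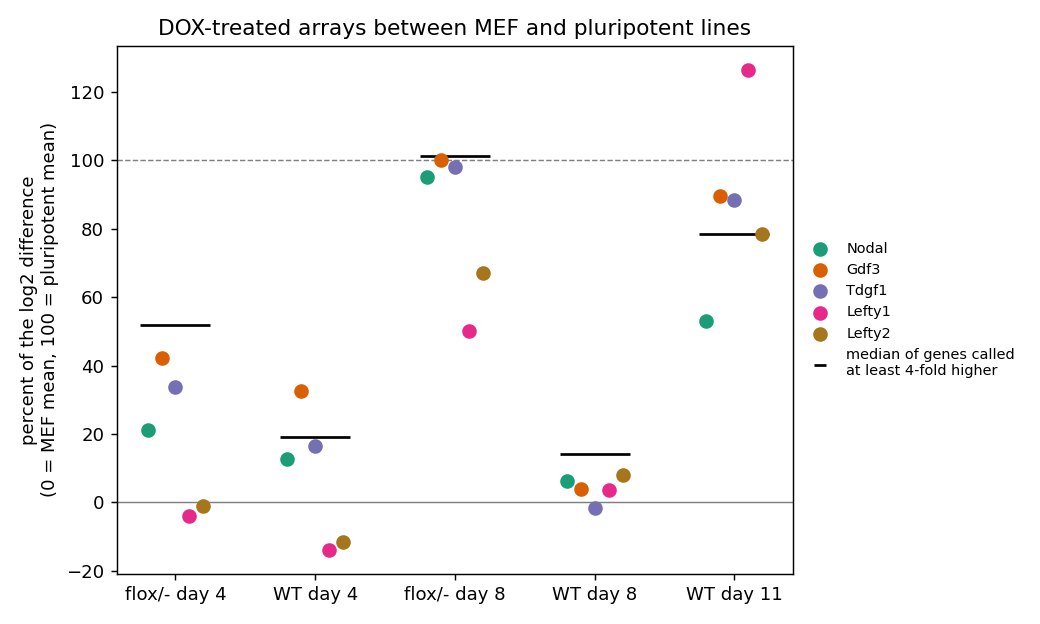
Position of each DOX-treated array (horizontal axis) between the MEF mean (0) and the pluripotent mean (100), in percent of the log2 difference (vertical axis), 1 point per gene; black bars are the median of the 524 genes called at least 4-fold higher in pluripotent cells. Both day 4 arrays have Gdf3 above Tdgf1 and Nodal, with the Lefty2 points there resting on signals in the background, and WT day 8 has all 5 genes below 8.

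The latest arrays of the genotypes differed most in Nodal and Lefty1. Nodal was 1.72 log2 units higher and Lefty1 1.54 lower in flox/- day 8 than in WT day 11, and the other 4 members were under 2-fold apart. Of all genes tested, 4.08% were at least 2-fold higher and 10.3% at least 2-fold lower in that pair. With 1 array each, genotype and day cannot be told apart.

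Day 4 was also set against MEF in a fit over all stages, to look at the earliest sample. Limma called 0 of the 5 members, with 0 at an unadjusted p under 0.05, and called 1.74% of all genes higher and 3.3% in either direction. Gdf3 was 1.80 ± 1.07 SE higher (adjusted p = 0.325), Tdgf1 1.95 ± 1.79 SE (adjusted p = 0.537) and Nodal 0.69 ± 0.84 SE (adjusted p = 0.660), while Lefty1 (-0.18) and Lefty2 (-0.30) were lower by less than their errors. Both day 4 arrays were above every MEF array for these 3 genes, as for 29.1% of genes, and below every MEF array for Lefty1, as for 25.3%. The SD over the day 8 arrays enters this error. Without either of them (2237 genes called), Gdf3 (adjusted p = 0.00660), Tdgf1 (adjusted p = 0.0213) and Nodal (adjusted p = 0.0490) passed as higher at day 4 than in MEF. As single pairs, Gdf3 and Tdgf1 were at least 2-fold higher than in the MEF of the same genotype both in flox/- cells (2.10 and 2.22) and in WT cells (1.54 and 1.46), where 13.5% of genes in flox/- and 5.45% in WT cells were so.

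The genotypes were compared to see whether Mbd3 dosage went with the level of these genes. Over the 4 stages that flox/- and WT cells share, limma with stage as a block called 0 of all genes (0.0%), with 852 genes and 0 of the members at an unadjusted p under 0.05. Tdgf1 was 2.46 ± 1.39 SE higher in flox/- cells (adjusted p = 0.693), Gdf3 1.27 ± 0.88 SE (adjusted p = 0.703), Nodal 1.09 ± 0.67 SE (adjusted p = 0.696), Lefty2 0.69 ± 0.62 SE (adjusted p = 0.726) and Lefty1 0.06 ± 0.32 SE (adjusted p = 0.953). None of these differences passed the test.

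By stage, the genotypes were furthest apart at day 8. At day 8 the flox/- array was 7.77 log2 units above the WT array for Tdgf1, 4.65 for Gdf3, 3.63 for Nodal and 2.86 for Lefty2, and 0.94 for Lefty1, with Cer1 at -0.14. The WT day 8 signal of Tdgf1 (4.49) was below the lower quartile and that of Lefty2 (4.72) just above it, so the background of the array limits these differences. So 4 of the 6 members were at least 2-fold higher, where 13.1% of all genes tested were higher and 18.7% lower by that much. These members passed the filter through arrays such as flox/- day 8, where they are high, so nothing is read from this share. With the values as deposited, Lefty1 (1.02) was at least 2-fold higher too. At day 4 Tdgf1 alone was at least 2-fold higher (1.35), where 4.82% of genes were, and Lefty2 (0.51), Gdf3 (0.47), Nodal (0.35) and Lefty1 (0.20) were closer. In MEF and in iPSC 0 of the 6 were 2-fold apart, where 4.12% and 5.08% of genes were. The nearest to it were the Lefty genes in iPSC, with Lefty1 at -0.93 and Lefty2 at -0.89.

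The day 8 pair sets a flox/- array against the reused WT array, so genotype, culture and series cannot be told apart there. Fibroblast markers moved with it, with a summed signal of 663 in flox/- day 8 and 10954 in WT day 8. The 7 trophoblast markers summed to 835 in flox/- day 8 and 1636 in WT day 8, but did not move together. Elf5 (4.86 in flox/-, 8.44 in WT), Krt7 (7.59 in flox/-, 9.80 in WT) and Hand1 (5.58 in flox/-, 6.42 in WT) were higher in WT. Eomes (7.81 in flox/-, 5.55 in WT), Tfap2c (7.71 in flox/-, 7.15 in WT) and Cdx2 (5.34 in flox/-, 4.96 in WT) were higher in flox/-. Gata3 was level (6.50 in flox/-, 6.55 in WT). The part of the fibroblast and trophoblast markers in the difference was not tested. Without that pair, the difference over the other stages was 0.69 for Tdgf1, 0.25 for Nodal, 0.15 for Gdf3, -0.03 for Lefty2 and -0.23 for Lefty1.

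**Figure D4:**
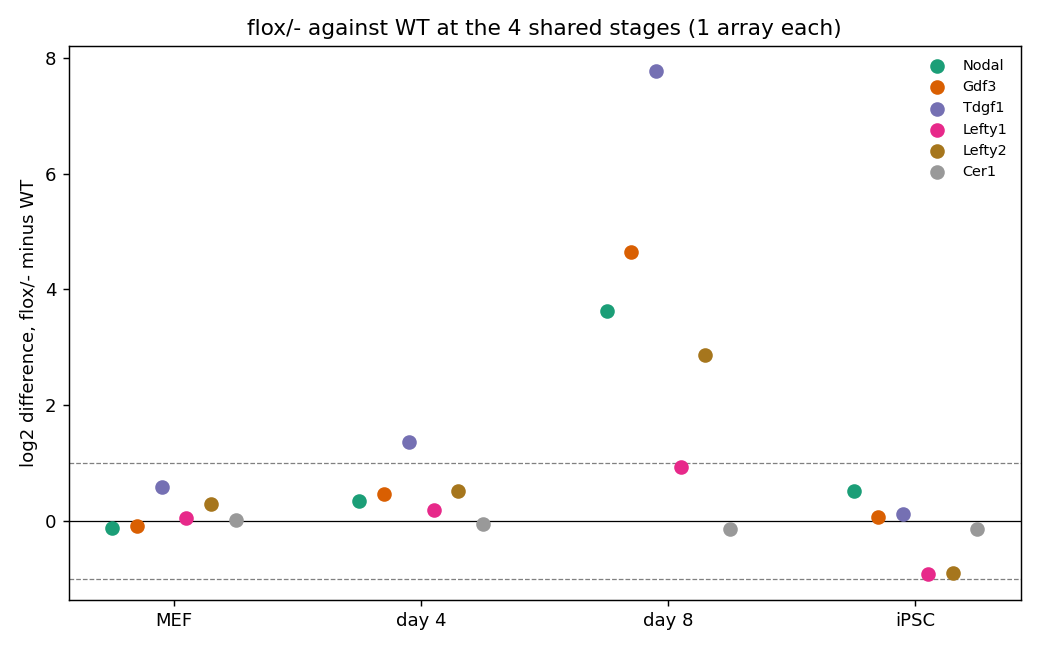
Log2 difference, flox/- minus WT (vertical axis), for the 6 genes at the 4 stages that both genotypes have (horizontal axis), 1 array of each genotype per stage; dashed lines mark a 2-fold difference. At day 8 4 genes lie between 2.86 and 7.77, and at day 4 Tdgf1 alone passes the 2-fold line.

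For the -/- genotype, arrays without DOX were compared with stage as a term. Limma called 0 of all genes (0.0%), with 907 genes and 0 of the members at an unadjusted p under 0.05. In MEF the -/- and WT arrays were within 0.11 log2 units for all 6 members, where 7.01% of genes were at least 2-fold apart. In ESC Lefty2 was 2.78 and Lefty1 1.06 higher in the -/- line than in the WT line, and Gdf3 was -0.54, Tdgf1 0.14 and Nodal -0.01 apart. In that ESC pair 3.88% of genes were at least 2-fold higher and 6.06% lower, and the low value was that of the WT line described above. The fitted differences over both stages were 1.15 ± 0.80 SE for Lefty2 (adjusted p = 0.719) and 0.42 ± 0.40 SE for Lefty1 (adjusted p = 0.779).

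Other genes of the pathway were called in both directions between pluripotent cells and MEF, with more of them lower than higher in pluripotent cells. The 5 lists used here, of ligands and their processing, receptors, transducers, inhibitors and response genes, hold 48 entries, of which 44 were measured and 38 passed the filter. Of these 38, 10 (26.3%) rose and 20 (52.6%) fell, where 30.1% of all genes tested were called higher and 29.9% lower. Of those that rose, Foxh1, Eomes and Otx2, described below, lay below the array median on every MEF array. They passed the filter through arrays where they are high, so nothing is read from the share that rose. The median log2 difference of all genes tested was 0.03.

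Of 5 measured ligand and processing genes, 3 fell and 1 rose in pluripotent cells, with a median of -1.37. Inhba, which encodes the subunit of activin A, fell 16.1-fold (8.38 ± 2.19 SD, n = 4, against 12.40 ± 0.75 SD, n = 3, limma adjusted p = 0.0156). The proprotein convertase gene Furin fell 4.45-fold and Bmp4, a ligand of the related BMP branch, 2.59-fold, while Pcsk6, a convertase that processes Nodal, rose 2.38-fold. Among the pluripotent lines Inhba had a log2 signal of 5.82 in flox/- iPSC, 9.06 in WT iPSC, 7.67 in -/- ESC and 10.99 in WT ESC. The mean log2 signal of the fibroblast markers there was 6.14, 9.44, 7.86 and 8.24 in the same order, and their part in the Inhba values was not tested.

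Of 7 measured receptor genes 5 passed the filter, and 2 rose and 3 fell (median -0.99). The type I activin receptor gene Acvr1b rose 2.30-fold, whereas the type II receptor gene Acvr2a fell 3.28-fold, the co-receptor gene Tgfbr3 6.82-fold and the TGF-beta receptor gene Tgfbr1 1.99-fold. Cfc1, the other EGF-CFC co-receptor gene, and Acvr1c, a further type I receptor gene, did not pass the filter, with signals of 4.85 to 5.16 and 4.33 to 4.52 on the 12 arrays.

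Of 7 transducer genes 6 passed, and 3 rose and 1 fell (median 0.31). Foxh1, the Smad partner that binds Nodal target genes, rose 12.5-fold (8.76 ± 0.17 SD, n = 4, against 5.12 ± 0.16 SD, n = 3, limma adjusted p = 3.39e-06). The T-box gene Eomes rose 7.59-fold and Trim33 1.50-fold, and Smad3 fell 2.32-fold. Under DOX, Foxh1 had 5.48 in flox/- and 4.99 in WT at day 4, 8.14 in flox/- and 5.34 in WT at day 8 and 8.09 in WT at day 11. Its high arrays under DOX were thus flox/- day 8 and WT day 11, the same that were high for the Nodal genes. This is not particular to the pathway. Pluripotency regulators such as Sox2 (12.46 and 11.91) and Esrrb (11.45 and 10.36) were also highest there under DOX. Others were not, as Pou5f1 was highest in WT day 8 (12.63) and Klf4 was higher in WT day 8 (10.34) than in WT day 11 (9.51).

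Of 15 further inhibitor genes, 14 passed, 9 fell and 2 rose (median -0.79). The activin antagonist genes Fstl3 and Fst fell 5.97-fold and 5.04-fold, the inhibitory Smad gene Smad6 5.51-fold and the Smad antagonist gene Pmepa1 2.25-fold. Of 10 measured response genes 8 passed, 4 fell and 2 rose (median -0.35). Id2, Id3 and Id1, which are best known as BMP targets, fell 11.5-fold, 5.67-fold and 4.12-fold, and Otx2, a homeobox gene of the epiblast, rose 7.10-fold.

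Under DOX against MEF 11 of the 38 genes (28.9%) fell and 0 rose, where 7.67% of all genes tested were called lower and 5.88% higher. They were 2 ligand, 1 receptor, 7 inhibitor and 1 response genes. Among them were Inhba (17.95-fold), Bmp4 (6.29-fold), Acvr2a (2.71-fold), Fst (4.55-fold), Smad6 (4.38-fold), Fstl3 (3.86-fold) and Pmepa1 (2.94-fold), and the response gene Fgf5 (1.58-fold). Fgf5, which is counted in the 11, was above the array median in -/- MEF alone (6.49). It passed the filter through an array where it is high, so nothing is read from its fall. Foxh1 did not pass (1.28 ± 0.82 SE, limma adjusted p = 0.293). In the comparisons of DOX with pluripotent cells, of day 4 with MEF, of iPSC with ESC and of the genotypes, limma called 0 genes of these 5 lists. All 13 of 13 pluripotency regulators, such as Nanog (129-fold) and Sox2 (105-fold), rose in pluripotent cells against MEF (median 4.93), where 30.1% of all genes tested were called higher. They were listed as genes known to act in pluripotent cells, and Nanog and Sox2 lay below the array median on every MEF array. Nothing is read from that count. Of the 13, Pou5f1 alone rose under DOX, where 5.88% of all genes tested were called higher. The transgene also encodes Oct4, and its share in this signal was not tested.

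**Figure D5:**
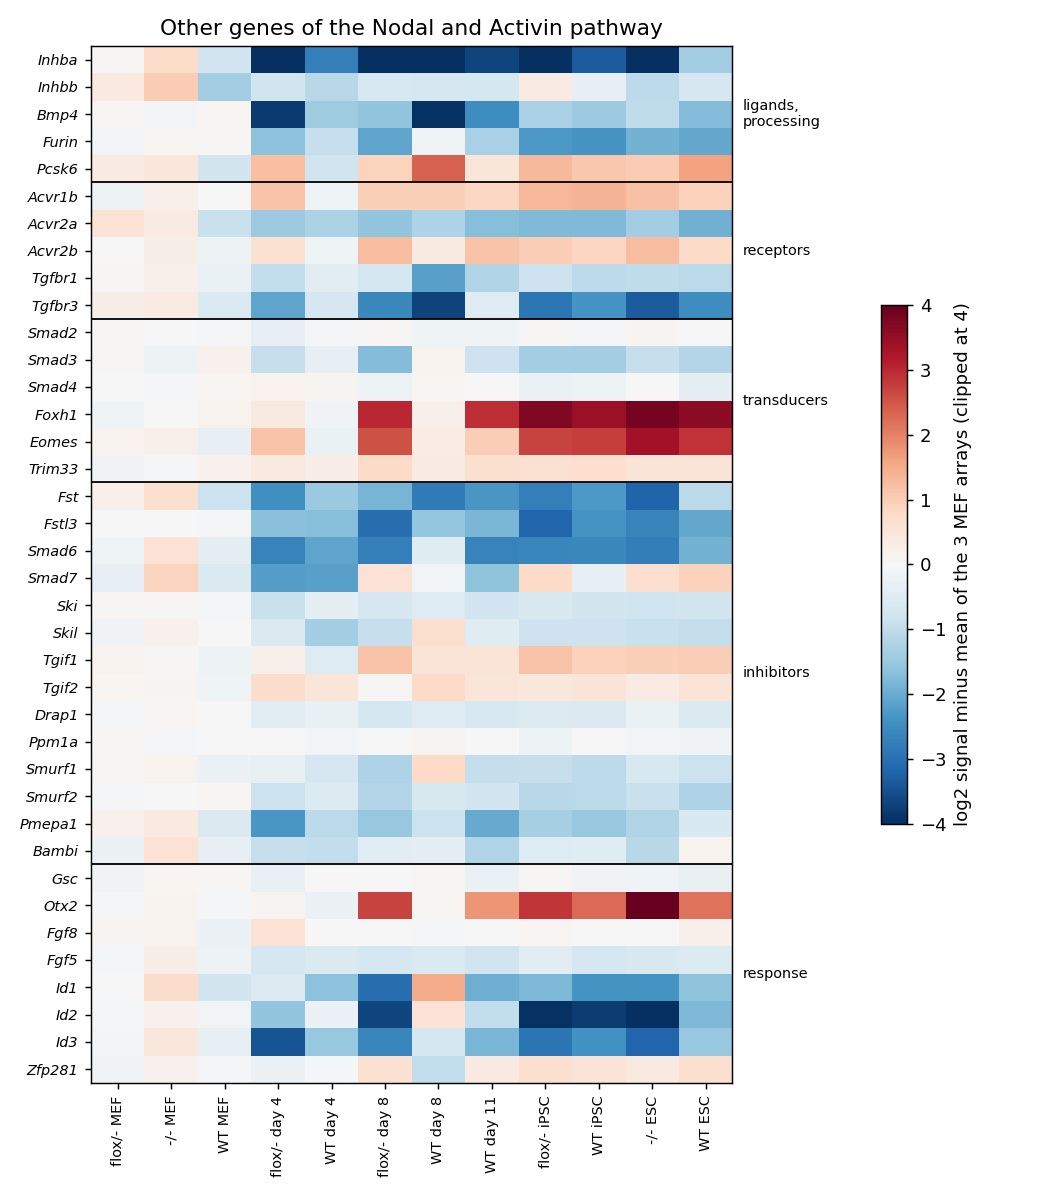
Log2 signal minus the mean of the 3 MEF arrays (colour, clipped at 4) for the genes of the 5 pathway lists that passed the filter (rows) on the 12 arrays (columns). Foxh1, Eomes and Otx2 are red in the 4 pluripotent arrays and in flox/- day 8, and Inhba is blue on every array outside MEF. WT day 11 is above MEF for Foxh1, Eomes and Otx2 too, with log2 signals of 8.09, 6.25 and 6.73. In flox/- day 8 these were 8.14, 7.81 and 7.66.

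The genes whose pattern over the 12 arrays was most like that of each member were found by Pearson's r, as a description. The arrays share 1 normalization and fall into a few cell states, so high values are common. For Nodal they were Unc13b (0.994), Pla2g1b (0.992) and Smarcad1 (0.992), and for Gdf3 Nr5a2 (0.993), Mtf2 (0.992) and Fbxo15 (0.989). Tdgf1 shared Nr5a2 (0.993) and Fbxo15 (0.993) with Gdf3, after Cbx7 (0.996). Lefty1 was nearest to Anapc10 (0.983), Pigv (0.954) and Swt1 (0.945), and Lefty2 to Rec114 (0.973), Rimklb (0.972) and Phf11d (0.965). For Cer1, whose values lie in the background, the highest was 0.806, with Gtf2h5.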

How the data were processed

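The measurements are RNA signals on 12 Affymetrix arrays. Per the labels' protocols, RNA was extracted with TRIzol and labelled with a 3' in vitro transcription kit. The deposited values are log2 signals made by the authors, from 3.11 to 13.99 for 35512 probe sets, and the summary and normalization methods are not given in the sources used here. All 12 columns were used and 0 were left out. Array medians differed by 0.122, over the 0.1 set as the limit, so the values were quantile normalized.

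The platform annotation listed 23410 probe sets, 21789 with 1 symbol, 1621 with several and 12102 not listed, and 21698 matched RefSeq genes by Entrez identifier. For 19938 genes, 999 of them with several probe sets, the probe set of highest mean was kept, and 13044 genes above the array median on at least 1 array were tested with limma 3.58.1 in R 4.3.3 (Benjamini-Hochberg adjustment over all genes, called at adjusted p under 0.05). Each genotype and stage has 1 array, so the arrays of a state, which differ in genotype or day, were its replicates, and p-values rest on the spread between those arrays. The number of arrays limits the precision. The fit was tested on simulated data with 200 changed genes. In pluripotent versus MEF, 90% of steps of 2 log2 units and 54% of steps of 1 were recovered over 13044 genes. For -/- versus WT the shares were 23% and 0%.

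The members and the lists were chosen with earlier results of these data known. All 6 members are named in every comparison. Of each list, up to 4 genes per comparison are named by largest difference among those called, and for each member the 3 most correlated genes. Eomes is both a transducer and a trophoblast marker. Alternatives were the values as deposited, other filters, a mean-variance trend, all arrays in 1 fit, genotype as a term, and arrays left out. Promoter and miRNA sequences are RefSeq's for GRCm38.p6.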

Additional observations from a re-analysis of the deposited data

Results flagged for a closer look

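Among the 4 pluripotent arrays, the Nodal signal of WT iPSC (9.69) lay apart from the other 3, which were within 10.18 to 10.20. The gap was 0.964 of the range of the group. Chance alone marks about 5% of groups in this way, and 12 groups of the 6 genes were looked at. WT iPSC also had the highest summed signal of fibroblast markers (7802, against 781 to 4824 in the other 3) and of macrophage markers (1597, against 227 to 705), and their part in the Nodal value was not tested.

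Between day 4 and day 8 of DOX, 3 members had differences of opposite sign in the genotypes. The difference of day 8 minus day 4 was 3.02 in flox/- cells and -0.26 in WT cells for Nodal, 2.80 and -1.38 for Gdf3, and 5.01 and -1.40 for Tdgf1, with flox/- first. The WT value for Nodal is under 2-fold, and Tdgf1 in WT day 8 was below the lower quartile. Each is the difference of 2 single arrays, and the difference between the genotypes was not tested. The WT day 8 array was reused from an earlier series, and 1 of its labels names day 4.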

How the results depend on the processing

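The pluripotent versus MEF calls of all 5 members held under every alternative run, 75 of 75 values. The number of genes called was 7827, with 6428 to 8275 over the alternatives and 6449 to 7762 with 1 array left out. For DOX versus MEF 1768 genes were called, 3165 without both reused arrays, 3561 with all 12 arrays in the fit, 508 with genotype as a term and 150 to 3165 with 1 array left out (150 without flox/- MEF, 402 without -/- MEF, 414 without WT MEF, 659 without WT day 11, 688 without flox/- day 4 and 3165 without WT day 8). Gdf3 passed there with all 12 arrays (adjusted p = 0.0456) and without WT day 8. DOX versus pluripotent had 1 call, 0 with a mean-variance trend, without the reused arrays or with genotype as a term, 19 with all 12 arrays, and 0 to 1315 with 1 array left out (1315 without flox/- day 8). Day 4 versus MEF had 430, 2307 without the reused arrays, where Gdf3 (adjusted p = 0.00931) and Tdgf1 (adjusted p = 0.0321) passed, and 10 to 2237 with 1 array left out (10 without flox/- MEF, 26 without flox/- day 4, 64 without -/- MEF, 96 without either iPSC array, 162 without WT MEF, 205 without either ESC array, 1020 without WT day 4 and 2237 without either day 8 array). iPSC versus ESC had 0, and 8 without the reused arrays. Leaving out 1 array gave 0 calls throughout for flox/- versus WT, -/- versus WT and iPSC versus ESC.

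Some differences between genotypes and between iPSC and ESC, none of them called, changed sign. Without the reused arrays, flox/- versus WT became -0.23 for Lefty1 and -0.032 for Lefty2, -/- versus WT 0.043 for Gdf3, -0.14 for Lefty1 and -0.28 for Lefty2, and iPSC versus ESC 0.24 for Gdf3 and -0.53 for Lefty2. With the values as deposited, -/- versus WT was 0.013 for Tdgf1. With 1 array left out, flox/- versus WT ran from -0.23 to 0.39 for Lefty1 and -0.032 to 1.22 for Lefty2. For -/- versus WT it ran from -0.033 to 0.18 for Nodal, -0.54 to 0.043 for Gdf3, -0.15 to 0.14 for Tdgf1, -0.14 to 1.06 for Lefty1 and -0.28 to 2.78 for Lefty2. For iPSC versus ESC it ran from -0.50 to 0.013 for Nodal, -0.30 to 0.24 for Gdf3, -0.081 to 0.056 for Tdgf1 and -0.53 to 2.25 for Lefty2. The cause of these changes was not tested. No paired analysis was possible because the labels give no replicate numbers, and flox/- and WT arrays were matched by stage alone. Without stage as a block, flox/- versus WT had 0 calls and the same differences, with adjusted p of 0.978 for Tdgf1. Signals below the lower quartile, as of Cer1 on all arrays, Lefty2 in MEF and at day 4, and Tdgf1 in -/- and WT MEF and in WT day 8, carry no order.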

Other observations

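The miR-302 cluster, whose microRNAs are known to target LEFTY transcripts in human ESC, was looked at after its values were seen. The probe sets of Mir302a, Mir302b, Mir302c and Mir302d all lay below the array median on every array and did not pass the filter. Mature forms from RefSeq (GRCm38.p6, chromosome 3, plus strand) are shown for the 3 that were matched, with the seed, bases 2 to 8, in capitals.
mmu-miR-302b-3p: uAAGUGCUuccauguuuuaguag
mmu-miR-302c-3p: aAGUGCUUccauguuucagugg
mmu-miR-302d-3p: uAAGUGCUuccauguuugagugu
By these letters miR-302b and miR-302d share a seed, and the listed miR-302c form has the same letters shifted by 1 base. In WT day 11 the log2 signals were 5.03 for Mir302a, 5.88 for Mir302b, 5.72 for Mir302c and 5.84 for Mir302d. On the other 11 arrays they were 3.62 to 4.41. Of 19938 genes, 38 (0.191%) had WT day 11 at least 2-fold above every other array, and Mir302b, Mir302c and Mir302d were among them. WT day 11 was also the DOX array with the highest Lefty1 (7.98) and Lefty2 (8.13) signal. Outside DOX, WT iPSC was higher for both (8.44 and 10.05) and WT ESC lower for both (6.39 and 7.35). The Mir302 signals of these 2 arrays lay within 3.62 to 4.41. The cluster was chosen after its values were seen, so nothing is read from the 0.191% share. With 1 array these are values with no test.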
